A study of Mus musculus with 4 samples.

Results

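CD40 is the receptor through which helper T cells, by way of CD40 ligand, activate B cells. It has no enzymatic activity of its own and signals by recruiting TRAF adaptor proteins to its cytoplasmic tail. In the resting B cell TRAF3 and TRAF2 hold the ubiquitin ligases cIAP1 and cIAP2 next to the kinase NIK, which is degraded, and engagement of CD40 breaks up this complex, so that NIK accumulates and noncanonical NF-κB signaling starts, while TRAF6 and other TRAFs lead to the canonical pathway. The mRNAs of 10 genes of this module, taken by symbol from the 55401 genes of the count table, are described here. They are the receptor gene Cd40, the adaptor genes Traf1, Traf2, Traf3, Traf5 and Traf6, the NIK gene Map3k14, the cIAP1 and cIAP2 genes Birc2 and Birc3, and Traf3ip3, whose product T3JAM binds TRAF3. Their 8 rows among the 1556 events of the deposited splicing table are described with them.

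RNA was sequenced from splenic follicular B (FOB) cells of C57BL/6 mice at 7 weeks of age, sorted as B220-positive cells with no CD93, much CD23 and little CD21. The WT group (2 libraries) was Hnrnpf fl/fl without Cre, and the Hnrnpf KO group (2 libraries) was Hnrnpf fl/fl with a Cre recombinase expressed in B cells, so both carried floxed Hnrnpf alleles. Hnrnpf encodes the splicing regulator hnRNP F. Cre is active from early B cell development onward and was present in the Hnrnpf KO group alone, so that effects of Cre itself and of the loss of hnRNP F cannot be told apart. Pooling of mice is not stated in the sources, and p-values measure the spread between these libraries, which may be partly technical.

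The libraries held between 15698567 and 18908963 counts. Hnrnpf mRNA was lower in Hnrnpf KO (log2 fold change −2.32, adjusted p = 1.05e-10 in edgeR). The B cell marker Cd79a, which encodes a chain of the B cell receptor complex, had 1495 to 1597 FPKM in every library, and Fcer2a, which encodes CD23, had 412 to 492 FPKM. Of 9 tested B cell markers, 2 were called higher by edgeR, Fcer2a (log2 fold change 0.22) and Ighd (0.28). Another 3 were called lower, among them Ms4a1 (−0.29) and Pax5 (−0.20). Among markers of other cells, the 6 neutrophil genes summed to 9.78 and 14.7 FPKM in WT and to 24.4 and 40.9 FPKM in Hnrnpf KO, with S100a8 and S100a9 called higher and Ly6g, Mpo and Elane at no more than 1 or 2 counts in the other libraries but at 7 to 13 counts in Hnrnpf KO replicate 2. The 9 T cell genes summed to 31.4 and 40.1 FPKM in WT and to 26.9 and 31.2 FPKM in Hnrnpf KO, and none was called by edgeR, with 2 at an unadjusted p under 0.05. Of 6 tested markers of marginal zone or immature B cells, Cd93 (log2 fold change 0.85) and Cd1d1 (0.34) were called higher, and Cr2, which encodes the sort marker CD21 (−0.47), and Dtx1 (−0.23) lower. Of 7 tested monocyte, macrophage or dendritic cell markers, only Flt3 was called, higher (log2 fold change 1.12). In this list 3 log2 fold changes lay above 0 and 4 below it, among them Adgre1 (−0.86) and Cd68 (−0.55), with a median of −0.21. The part of such cells in the results was not tested. In sorted bulk cells, fewer cells of a type and less RNA per cell cannot be told apart.

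Counts of the 10 genes were compared between genotypes in a fit over the 14123 genes that passed edgeR's filter on low counts, and a gene was called where its adjusted p did not exceed 0.05. All 10 genes passed the filter, with 1070 to 6913 counts per library. None of the 10 was called, while 6.97% of all genes tested were, and 0.899% were called with a fold change of at least 2. The quasi-likelihood F test of edgeR gave these 10 genes Benjamini-Hochberg adjusted p between 0.144 and 0.932, and 1 of the 10 genes (Map3k14) had an unadjusted p under 0.05, as did 20.3% of all genes tested. DESeq2 called 0 of the 10 as well. The log2 fold changes of Hnrnpf KO over WT lay between −0.15 and 0.07, with a median of −0.04 beside −0.002 over all genes tested. Across the 10 genes, the 95% intervals ran from 0.826 to 1.16 times the WT level, so a change of 2-fold in either direction lay outside all of them. The libraries of the 2 genotypes did not overlap for 3 of the 10 genes, Traf1, Traf6 and Map3k14, against 50.1% of all genes tested.

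**Figure D1:**
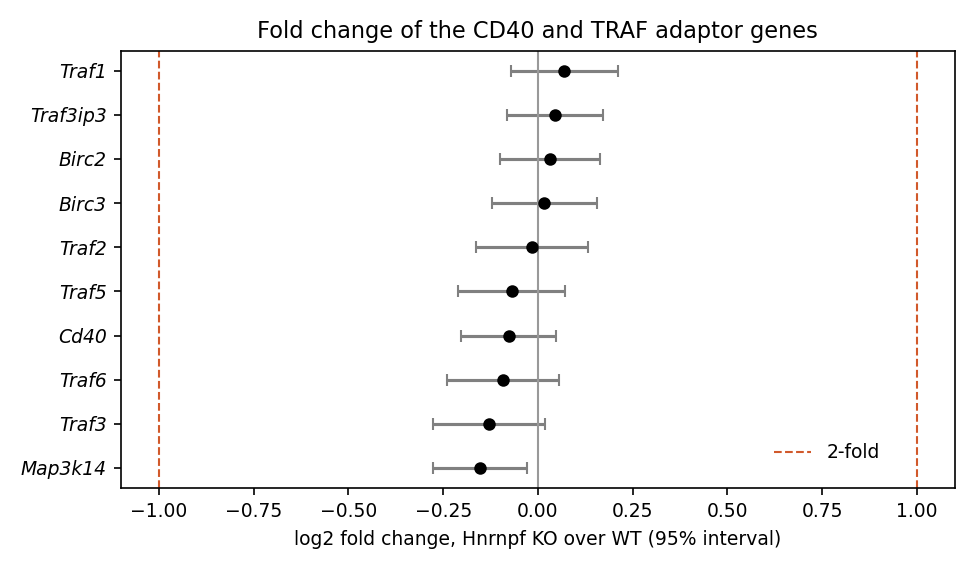
Log2 fold change of Hnrnpf KO over WT for each of the 10 genes (points) with its 95% interval (bars) from edgeR's quasi-likelihood fit, 2 libraries per genotype. The dashed lines mark a 2-fold change; every interval lies well inside them, and that of Map3k14 alone leaves out 0.

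Cd40 (ENSMUSG00000017652, chr2:165055627-165072948 of GRCm38, plus strand) was at 144 and 135 CPM in WT and at 129 and 135 CPM in Hnrnpf KO, where CPM are counts scaled to library size with TMM factors. The second library of each genotype stood at nearly the same level, so the groups overlapped. The 95% interval of the log2 fold change ran from −0.20 to 0.05, which leaves room for a fall to 0.869 of the WT level and for a rise to 1.03 times it. With each library left out in turn, the log2 fold change stayed negative, between −0.12 and −0.03.

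The adaptors TRAF2 and TRAF3 act together in holding NIK down. Traf2 (ENSMUSG00000026942, chr2:25517982-25546940, minus strand) was at 90.1 and 90.8 CPM in WT and at 84.4 and 94.4 CPM in Hnrnpf KO. The Hnrnpf KO libraries lay on either side of both WT libraries, and the log2 fold change was −0.02 (95% interval −0.16 to 0.13, adjusted p = 0.932 in edgeR). Traf3 (ENSMUSG00000021277, chr12:111166370-111267153, plus strand) was at 246 and 238 CPM in WT and at 204 and 239 CPM in Hnrnpf KO. Replicate 1 of Hnrnpf KO was the low one, and replicate 2 fell between the WT libraries. The log2 fold change of Traf3 was −0.13 (standard error (SE) 0.07, 95% interval −0.28 to 0.02, adjusted p = 0.319 in edgeR). This value turned on a single library. Without Hnrnpf KO replicate 2 it was −0.25 and was called (adjusted p = 0.0246 in edgeR), and without Hnrnpf KO replicate 1 it was −0.02.

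TRAF6 binds the CD40 tail at a site apart from that of the other TRAFs. Traf5 (ENSMUSG00000026637, chr1:191997205-192092559, minus strand), which encodes an adaptor related to TRAF3, was at 140 and 131 CPM in WT and at 122 and 136 CPM in Hnrnpf KO, and the groups overlapped (log2 fold change −0.07, SE 0.07, adjusted p = 0.613 in edgeR). Traf6 (ENSMUSG00000027164, chr2:101678429-101701669, plus strand), the adaptor that activates TAK1, was at 76.4 and 72.1 CPM in WT and at 68.3 and 70.8 CPM in Hnrnpf KO. Both Hnrnpf KO libraries of Traf6 lay below both WT libraries, by little (log2 fold change −0.09, SE 0.07, adjusted p = 0.498 in edgeR). For Traf1 (ENSMUSG00000026875, chr2:34941750-34961772, minus strand), which lacks a RING finger and is itself an NF-κB target, the values were 77.6 and 73.9 CPM in WT and 78.8 and 80.1 CPM in Hnrnpf KO. Traf1 had the highest log2 fold change of the 10, at 0.07 (SE 0.07, adjusted p = 0.608 in edgeR).

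Map3k14 (ENSMUSG00000020941, chr11:103219762-103267472, minus strand), the gene of the kinase NIK, was at 117 and 120 CPM in WT and at 105 and 109 CPM in Hnrnpf KO. Both Hnrnpf KO libraries lay below both WT libraries. It had the lowest log2 fold change of the 10, −0.15 (SE 0.06, 95% interval −0.28 to −0.03), which is 0.900 of the WT level. Its unadjusted p was 0.0196 and its adjusted p 0.144 (edgeR, adjusted over 14123 genes), so it was not called. The lowest adjusted p of Map3k14 under any other setting tried was 0.105, and with each library left out the log2 fold change lay between −0.18 and −0.12.

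Birc2 and Birc3 encode the ligases that mark NIK for degradation, and the genes are neighbors on chromosome 9. Birc2 (ENSMUSG00000057367, chr9:7818227-7837064, minus strand) was at 101 and 95.1 CPM in WT and at 98.3 and 102 CPM in Hnrnpf KO (log2 fold change 0.03, SE 0.06). Birc3 (ENSMUSG00000032000, chr9:7848699-7873186, minus strand) was at 327 and 317 CPM in WT and at 349 and 302 CPM in Hnrnpf KO (log2 fold change 0.02, SE 0.06). The 2 Hnrnpf KO libraries enclosed both WT libraries of Birc3, the widest spread within a group among the 10 genes in CPM (SD 33.6, n = 2). Traf3ip3 (ENSMUSG00000037318, chr1:193175453-193201703, minus strand) was at 377 and 344 CPM in WT and at 358 and 386 CPM in Hnrnpf KO, with overlapping groups (log2 fold change 0.04, SE 0.06). Adjusted p of these 3 genes lay between 0.723 and 0.923 in edgeR's test. Annotated exons of other genes overlap exons of Traf5 (Gm26879 and Mir3473c), Map3k14 (1700028N14Rik) and Traf3ip3 (A130010J15Rik), and since the strand setting of the counting is not given in the sources used here, reads of such pairs cannot be told apart.

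Levels of different genes were compared per length, in FPKM (the deposited counts divided by exon length and library total). Over the 4 libraries Birc3 (64.5 ± 4.101 FPKM, mean ± SD, n = 4) and Traf3ip3 (63.5 ± 2.96) were highest, and their ranges overlapped. Cd40 followed at 39.8 ± 1.86 FPKM, apart from its neighbors in the order. Traf3 at 31.5 ± 2.62 FPKM and Traf5 at 28.9 ± 1.74 overlapped, and Birc2 stood alone at 21.6 ± 0.589. Traf2 (17.6 ± 0.776 FPKM) and Map3k14 (17.2 ± 1.17) overlapped, as did Traf6 (9.11 ± 0.441) and Traf1 (8.79 ± 0.252) at the lower end. Among the adaptors, Traf3 thus had the highest mean FPKM and Traf1 the lowest, with ranges that did not meet. The exon length used (8819 bases for Traf1) may count annotated retained introns, which for Traf1 include segments of 1678 and 1307 bases. Such a length lowers FPKM, and the order was not tested with other lengths. The highest of the 10 levels was 7.34 times the lowest. Even Traf1 was above 59.3% of the genes tested, whose median was 6.03 FPKM, and Birc3 was above 94.97%.

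**Figure D2:**
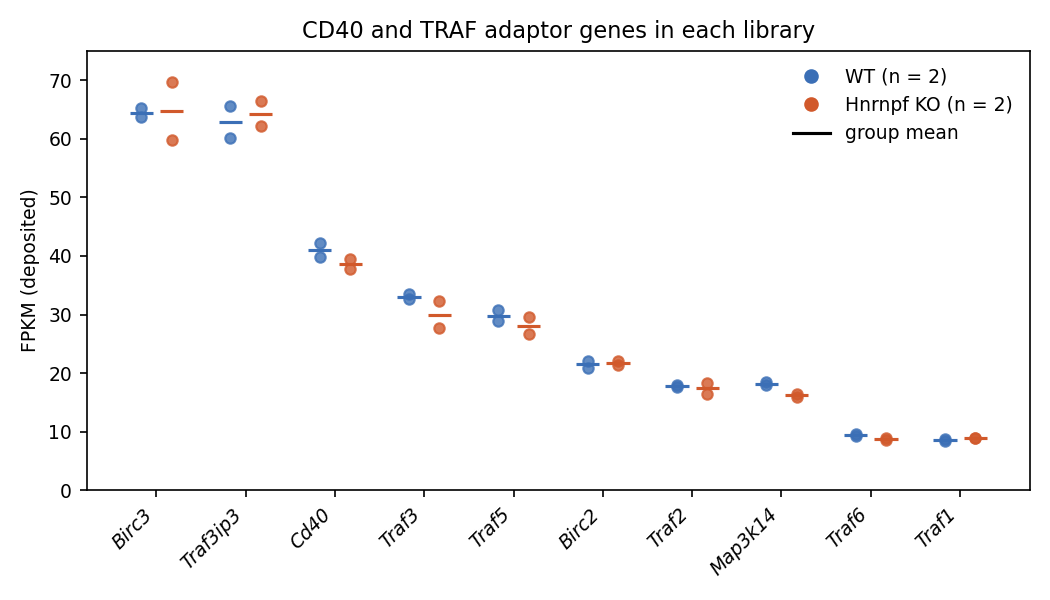
FPKM of the 10 genes in each library (points; 2 WT and 2 Hnrnpf KO) with the mean of each genotype (lines), ordered by the mean over all 4 libraries. Birc3 and Traf3ip3 lie at 59.7 to 69.6 FPKM, and Traf6 and Traf1 at 8.43 to 9.68.

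Splicing was described from the events that the authors listed as altered between the genotypes with rMATS. Only the gene and the type of each event were used, since the differences and FDR values are the authors' own comparison, and the table holds no coordinates or values of single libraries. Of the 10 genes, 3 had at least 1 listed event, namely Cd40 with 5, Traf3 with 2 and Traf2 with 1. Among all genes that passed the filter, 8.22% had a listed event, and 10.6% of the 9875 genes that averaged 100 counts or more, a class that holds all 10. The 7 genes without a listed event were Traf1, Traf5, Traf6, Map3k14, Birc2, Birc3 and Traf3ip3. Birc3 and Traf3ip3, with the most counts of the 10, were thus among those without. For Traf3ip3, 5 retained introns and 3 alternative exons outside the coding sequence are annotated, and for Traf1 5 retained introns. No retained intron and no exon skipped by another transcript are annotated for Traf5, Birc2 or Birc3. The receptor and 2 of its adaptors are thus the genes with events, and none of the 3 was called for mRNA abundance.

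The 5 events of Cd40 were 3 skipped exons, 1 retained intron and 1 pair of mutually exclusive exons. Only 13 of the 1173 genes in the table had 5 or more events, and 18 had events of at least 3 types, as Cd40 did. The module was chosen with earlier results of these data known, the splicing of Cd40 among them. Neither this place of Cd40 nor the share of the module's genes with an event is independent of that choice. Both Traf3 events were skipped exons, and 184 genes of the table had exactly 2 events. The Traf2 event was an alternative 5′ splice site, the type of 145 of the 1556 events, and 912 genes had exactly 1 event.

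The annotation shows segments of these 3 genes that annotated transcripts splice in different ways. The table has no coordinates, and the listed events were not assigned to segments here. Listed events may also involve exons that no annotated transcript skips. The 3 skipped exons listed for Cd40 thus need not be its 3 annotated alternative exons. hnRNP F binds runs of G in RNA, so runs of at least 3 G are shown in capitals in the following segments, which are the alternative coding exons of the main transcript, the alternative 5′ splice site and the retained intron of the listed types, from GENCODE M21 on GRCm38.
Traf2 end of exon 2, 21 bases, chr2:25538845-25538865, minus strand: gtgtgcatccattctctccag
Traf3 exon 8, 75 bases, chr12:111251130-111251204, plus strand: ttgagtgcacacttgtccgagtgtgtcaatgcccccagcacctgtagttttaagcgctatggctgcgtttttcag
Cd40 exon 6, 62 bases, chr2:165066503-165066564, plus strand: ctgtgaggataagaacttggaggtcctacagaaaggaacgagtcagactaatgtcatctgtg
Cd40 exon 7, 87 bases, chr2:165069629-165069715, plus strand: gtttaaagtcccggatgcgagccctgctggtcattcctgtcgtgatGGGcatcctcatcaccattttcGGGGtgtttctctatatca
Cd40 intron 7, 101 bases, chr2:165069716-165069816, plus strand: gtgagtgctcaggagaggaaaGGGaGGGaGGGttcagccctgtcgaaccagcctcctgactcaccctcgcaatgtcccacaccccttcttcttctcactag

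In Traf2, the 21 bases lie between the 2 annotated 5′ splice sites of exon 2 and are part of the coding sequence of an annotated longer transcript, but not of the main transcript. They begin with gt, as an intron does, and hold no run of 3 G, which 16.1% of the last 21 bases of internal coding exons do. An insertion in the RING finger of TRAF2 is known from a longer isoform of the protein. The 75 bases of Traf3 exon 8 lie in the coding sequence and hold no run of 3 G either, whereas 49.8% of 1185 internal coding exons of this length hold at least 1. Both lengths are multiples of 3, so that leaving these segments in or out keeps the reading frame. The annotation gives Traf3 another 2 alternative exons, of 109 and 111 bases, both outside the coding sequence, with 2 runs and 1 run of at least 3 G.

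In Cd40, exon 6 holds no run of 3 G (44.3% of 628 exons of its length hold at least 1), exon 7 holds 2 (19.6% of 1214 exons of its length hold as many or more) and intron 7 holds 3 (40.2% of 1225 annotated retained introns within 10 bases of its length hold as many or more). The runs of intron 7 start at its bases 22, 26 and 30, each 1 base apart from the next, and those of exon 7 start at bases 47 and 69. A further coding exon of Cd40, 114 bases long and used in another annotated transcript but not in the main transcript, holds 1 run. These counts describe the windows alone and not the introns around them, whose sequence was not used here.

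**Figure D3:**
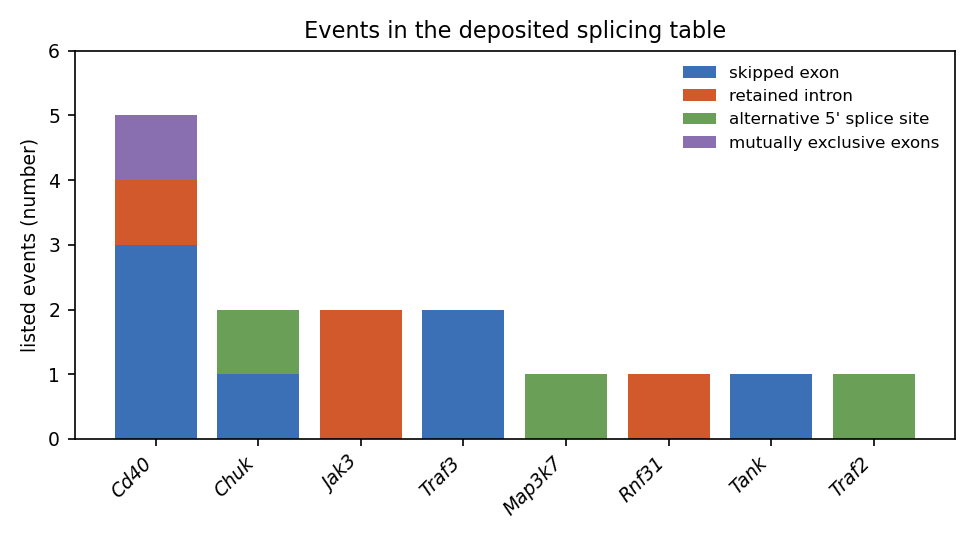
Number of listed splicing events (vertical axis) of each type for every gene of the module and of the 4 lists around it that has at least 1. Cd40 has 5 events of 3 types, while Traf3, Chuk and Jak3 have 2 each and Traf2, Map3k7, Rnf31 and Tank 1 each.

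Around the 10 genes, 80 genes of 4 lists, chosen with earlier results of these data known, were examined, and 73 of them passed the filter. EdgeR's quasi-likelihood test called 3 of them higher and 7 lower in Hnrnpf KO, or 13.7%, beside 6.97% of all genes tested, and none of the 10 changed by 2-fold. DESeq2 called the same 10 genes. Without Hnrnpf KO replicate 2, the library with the highest neutrophil sum, 9 of the 10 were called, Tnfrsf13b was not, and Ikbkb of the effector list was called lower (log2 fold change −0.23, adjusted p = 0.0492 in edgeR). The 10 called genes were 2 kinases of the effector list, 5 genes induced through CD40 and 3 other receptors. Among the 21 TRAF-associated regulators, which include the deubiquitinases CYLD and A20 and the linear ubiquitin ligase, all were tested, none was called by edgeR's test and 1 had an unadjusted p under 0.05 (20.3% of all genes), with log2 fold changes from −0.17 to 0.21 and a median of 0.0008. In this list Tank, which encodes a TRAF-binding regulator of TBK1, had 1 skipped exon in the splicing table, and Rnf31, the gene of the catalytic subunit HOIP of the linear ubiquitin ligase, had 1 retained intron.

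Of the 20 IKK, TAK1 and NF-κB effectors, 2 rose in edgeR's test and none fell, so 10% were called beside 6.97% of all genes tested. In the same test 6 had an unadjusted p under 0.05 in either direction (20.3% of all genes), and the median log2 fold change was −0.05. Ikbke, the gene of the TBK1-related kinase IKKε, was at 44.4 and 43.1 CPM in WT and at 64.9 and 65.3 CPM in Hnrnpf KO (log2 fold change 0.57, SE 0.07, adjusted p = 0.000522 in edgeR). Jak3, a kinase known to associate with CD40, was at 221 and 249 CPM in WT and at 292 and 287 CPM in Hnrnpf KO (log2 fold change 0.30, SE 0.06, adjusted p = 0.00920 in edgeR), and without WT replicate 1 it was not called (adjusted p = 0.0544 in edgeR). Both genes were higher in both Hnrnpf KO libraries, without overlap of the genotypes, as for 50.1% of all genes tested in either direction. Jak3 also had 2 retained introns in the splicing table, Chuk, the gene of IKKα, on which NIK acts, had 1 skipped exon and 1 alternative 5′ splice site, and Map3k7, the gene of TAK1, had 1 alternative 5′ splice site. Neither Chuk (log2 fold change −0.13, adjusted p = 0.218 in edgeR) nor Map3k7 (−0.03, adjusted p = 0.866) was called for abundance.

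Among 22 genes known to be induced by CD40 engagement in B cells, 21 were tested, since Il6 had 1 count in a single library. The sorted cells were not stimulated, so these are resting levels. Here 4 genes fell and 1 rose in edgeR's test, or 23.8% of those tested, beside 6.97% of all genes tested. The median log2 fold change was −0.07, beside −0.002 over all genes. Tnf was at 26.4 and 30.4 CPM in WT and at 17.03 and 19.04 CPM in Hnrnpf KO (log2 fold change −0.66, SE 0.11, adjusted p = 0.00340 in edgeR). Lta, the neighboring gene of the same cytokine family, was at 44.1 and 45.6 CPM in WT and at 31.4 and 33.3 CPM in Hnrnpf KO (log2 fold change −0.47, SE 0.08, adjusted p = 0.00454 in edgeR). Tnf and Lta thus both fell, each without overlap of the genotypes' libraries, as for 50.1% of all genes tested. The kinase gene Pim1 fell from 65.7 and 65.1 CPM to 50.9 and 52.4 CPM (log2 fold change −0.34, adjusted p = 0.0128 in edgeR, and 0.0740 without Hnrnpf KO replicate 1). Slamf1, which encodes a surface receptor of activated lymphocytes, fell from 50.1 and 46.7 CPM to 30.0 and 40.4 CPM (log2 fold change −0.45, adjusted p = 0.0320 in edgeR, 0.223 without Hnrnpf KO replicate 1 and 0.0549 with the replicate number as a block). Myc, a growth regulator, rose from 91.7 and 105 CPM to 125 and 119 CPM (log2 fold change 0.32, adjusted p = 0.0146 in edgeR, 0.0956 without WT replicate 1 and 0.0686 without Hnrnpf KO replicate 1). No gene of this list had a listed splicing event.

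Of 17 genes of other TNF receptor family members that use TRAF adaptors, or of ligands of such receptors, 11 were tested. In edgeR's test 3 fell and none rose, so 27.3% were called beside 6.97% of all genes tested. In the same test 6 had an unadjusted p under 0.05 in either direction (20.3% of all genes), and the median log2 fold change was −0.28. Tnfrsf13c, the gene of the BAFF receptor, which also signals through TRAF3 and NIK, was at 379 and 388 CPM in WT and at 302 and 290 CPM in Hnrnpf KO (log2 fold change −0.37, SE 0.05, adjusted p = 0.000713 in edgeR). Tnfrsf13b, the gene of TACI, another BAFF receptor, was at 309 and 342 CPM in WT and at 281 and 256 CPM in Hnrnpf KO (log2 fold change −0.28, SE 0.06, adjusted p = 0.0157 in edgeR). The call of Tnfrsf13b was lost without WT replicate 2 (adjusted p = 0.0960), without Hnrnpf KO replicate 2 (adjusted p = 0.0750) and with the replicate number as a block (adjusted p = 0.0546). Cd27, the gene of another receptor of this family, was at 24.7 and 22.6 CPM in WT and at 12.3 and 13.7 CPM in Hnrnpf KO (log2 fold change −0.86, SE 0.12, adjusted p = 0.000826 in edgeR). All 3 were lower in both Hnrnpf KO libraries, while 50.1% of all genes tested had no overlap of the genotypes in either direction. Tnf, Lta, Cd27 and Slamf1 are also expressed by T cells, whose marker genes had the sums given above. Of the 9 log2 fold changes of these markers, 8 were below 0, beside 7124 of the 14123 genes tested. None of the 9 markers was called, and the part of T cells in these falls was not tested. Cd40lg, the gene of the CD40 ligand, had no more than 0.54 FPKM in any library. Tnfrsf17, Ltbr, Tnfrsf9, Tnfrsf11a, Tnfsf13b and Tnfsf13 were left out by the filter, and no gene of this list had a listed splicing event. None of the 10 calls in the 4 lists was made by limma-trend on log2(FPKM + 0.1) or log2(FPKM + 1).

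**Figure D4:**
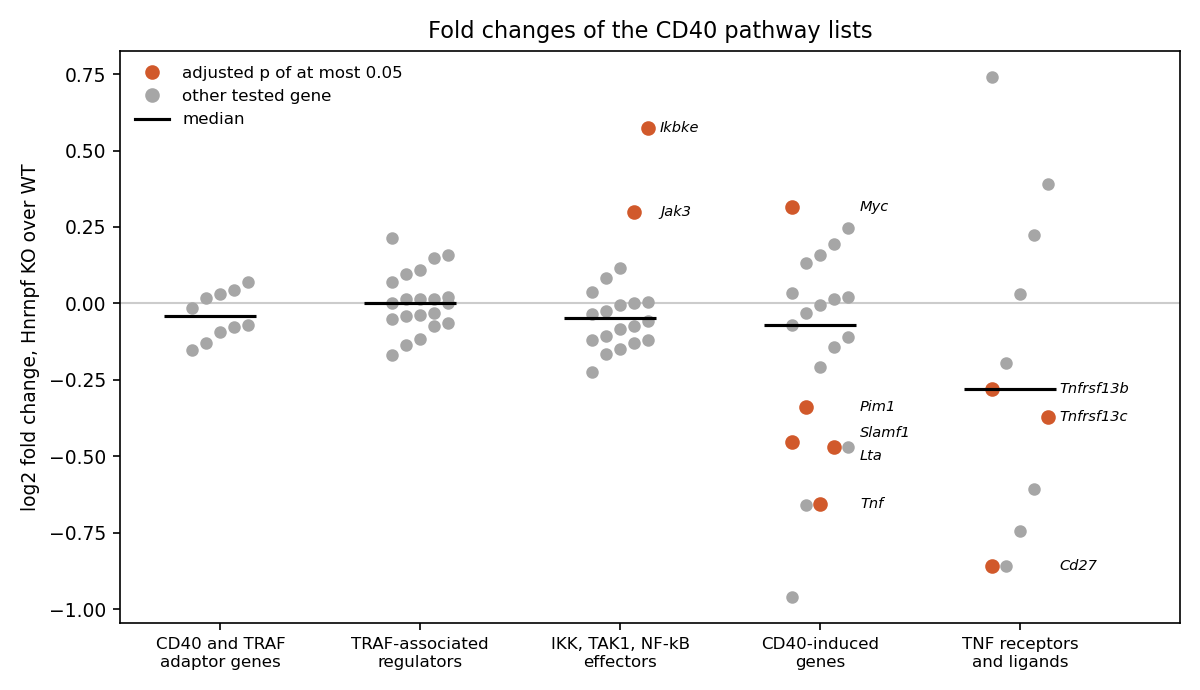
Log2 fold change of Hnrnpf KO over WT (vertical axis) for the 10 genes of the module and for the tested genes of 4 lists around them; orange points passed the threshold of 0.05 on the adjusted p in edgeR's quasi-likelihood test, and lines are medians. No gene of the module or of the TRAF-associated regulators is called, while Ikbke, Jak3 and Myc lie above 0 and 7 called genes lie below it.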

How the data were processed

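RNA of sorted FOB cells from 2 WT and 2 Hnrnpf KO samples was grouped by the labels' genotype. The authors trimmed reads with Cutadapt 1.9.1, aligned them to GRCm38 with HISAT2 2.0.1 and counted them per gene with HTSeq 0.6.1. The deposited counts are whole numbers without normalization, and the authors derived the deposited FPKM from them using exon length and library total. The authors' splicing table lists rMATS events past their own threshold with an FDR (an adjusted p-value) and an inclusion level difference, neither of which was used.

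Counts were compared with edgeR 4.0.16 in R 4.3.3 (filterByExpr, TMM, quasi-likelihood F test, Benjamini-Hochberg adjustment over 14123 genes, threshold 0.05 on the adjusted p). The 10 genes and the 4 lists were chosen with earlier results of these data known. A further check of the genotype is not reported here. Every called gene of a list and every list gene with a splicing row was named. Alternatives were DESeq2 1.42.0, limma 3.58.1 on log2(FPKM + 0.1) and log2(FPKM + 1), other scalings, filters and thresholds, the replicate number as a block and each library left out. An exact permutation test of 2 against 2 libraries cannot go below p = 0.333. Counts of this comparison were also simulated with the same dispersion for every gene (13890 genes tested). In them edgeR's test called 50 of 50 genes raised 2-fold and 47 of 50 at 0.5 of the WT level. It also called 50 of 50 at each of 3 and 0.333 times that level, and 11 genes that were not changed. Changes of less than 2-fold, the size of every call in the 4 lists, were not simulated. Start and end of all 10 genes matched GENCODE M21, from which sequences were read in Python 3.11.15.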

Additional observations from a re-analysis of the deposited data

How the results depend on the processing

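None of the 10 genes was called under any other normalization, filter, threshold or tool, and with each library left out the number called lower ranged from 0 to 1 (Traf3, without Hnrnpf KO replicate 2) and the number called higher was 0. Of 140 repeated log2 fold changes of these genes, 132 kept their direction and their side of the threshold and 7 changed sign, all with a library left out and all close to 0. With each library left out, the log2 fold change ranged from −0.10 to 0.063 for Traf2, from −0.16 to 0.011 for Traf5, from −0.0094 to 0.078 for Birc2, from −0.091 to 0.12 for Birc3 and from −0.017 to 0.11 for Traf3ip3. The libraries whose absence turned the sign were Hnrnpf KO replicate 1 for Traf2, Traf5 and Birc3, WT replicate 2 for Birc2, Birc3 and Traf3ip3, and Hnrnpf KO replicate 2 for Traf3ip3.

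In the 4 lists around them, 3 genes were called higher and 7 lower. Limma-trend on log2(FPKM + 0.1) or log2(FPKM + 1) called 0 higher and 0 lower, with adjusted p between 0.0587 and 0.224 for the 10 calls. A threshold of 0.01 on the adjusted p left 4 lower. With each library left out, 1 to 3 were called higher and 6 to 7 lower. Over all genes, 586 were called higher and 399 lower, against 29 and 16 or 26 and 15 with limma-trend, 370 and 250 with DESeq2, 242 and 150 at a threshold of 0.01, and 859 and 655 at one of 0.1. The cause of these differences was not tested. The share of genes with a listed splicing event was 10.6% instead of 8.22% among genes that averaged 100 counts or more.

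The labels number the libraries 1 and 2 in each genotype, but deviations of same-numbered libraries from their group means did not go together (r = −0.06 across genes, which are not independent). The main fit used no pairing, though this r cannot exclude that same-numbered libraries were handled together. With the replicate number as a block, 378 genes were called higher and 234 lower, 0 of the 10 genes was called, and 3 list genes were called higher and 5 lower.

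With 2 libraries per genotype the tests rest on the dispersion shared across genes. With a library left out, the lone library of its genotype was assumed to vary like the others. Gene counts sum all isoforms.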
